A study of Mus musculus with 6 samples.

Results

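The histone genes of N2A mouse neuroblastoma cells were examined upon knockdown of *Paupar*, a long noncoding RNA transcribed upstream of *Pax6*. A gene was counted as a member when a row of the array table carried exactly 1 symbol of the clustered histone families (H1f, H2ac, H2bc, H3c or H4c followed by a digit) or the symbol of a variant (*H2ax*, *H2az1*, *H2az2*, *H3f3a* or *H3f3b*). This gave 34 of 19938 genes: 8 of H1, 4 of H2A, 9 of H2B, 3 of H3, 6 of H4 and 4 variants. *H3f3b* had no row of its own and is not described. Only *H2az1* had 2 rows, of which the one with the higher mean was used.

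RNA came from cells transiently transfected with 1.5 µg of a plasmid that makes a *Paupar* hairpin RNA (knockdown, 3 arrays) or of a non-targeting plasmid (control, 3 arrays). All cells were grown with 10% fetal bovine serum, and RNA was taken 2.5 days after transfection. The U6 promoter drives the hairpin. No selection of transfected cells is described for the arrays, so a sample may include cells that took up no plasmid. No row of the array carries the name *Paupar*, so the knockdown itself could not be checked here. Values are log2 expression values from Affymetrix Mouse Gene 1.0 ST arrays, on which an increase of 1 is a doubling.

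Histones package DNA: H2A, H2B, H3 and H4 form the nucleosome core, and H1 binds the linker DNA between cores. The clustered genes are transcribed mainly in S phase, when new chromatin is assembled, and their mRNAs end in a stem-loop bound by the protein SLBP instead of a poly(A) tail. Variant genes lie outside the clusters, mostly give polyadenylated mRNAs and supply histones that replace the core forms at any time of the cell cycle. In a bulk culture, a change in the share of cells that express a gene and a change in RNA per cell cannot be told apart.

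The labelled cell type was borne out by its markers: all 10 measured sympathetic neuroblastoma genes, among them *Phox2a*, *Hand2* and *Chga*, lay above the median gene, against 0 of 4 glial, 2 of 6 fibroblast and muscle and 1 of 5 blood and endothelial genes. The mean log2 value of the neuroblastoma list was 10.85 to 10.99 on knockdown arrays and 11.16 to 11.25 on control arrays, and its part in the results on histones was not tested. Arrays of 1 group correlated at 0.989 to 0.994 over all rows. Control replicate 1 stood apart in the histone genes. It was the lowest of the 6 arrays for 26 of the 34 members, where 19.2% of all genes were lowest on that array.

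Most histone genes lay slightly higher upon knockdown, and 2 were called lower. The log2 fold change was above 0 for 28 of 34 members (58.4% of all genes), with a median of 0.23, against 0.03 over all genes. *H2az2*, *H4c3* and *H2bc14* rose, and *H2bc4* and *H1f2* fell (limma, Benjamini-Hochberg adjusted p under 0.05). These were 3 rises and 2 falls among 34 members, 25 of which passed the variance filter and were tested. Over all 9969 genes tested, 2.39% rose and 5.16% fell. At an unadjusted p under 0.05, 13 of 34 members lay above 0 and 2 below it (6.03% and 7.89% of all genes). All knockdown arrays lay above all control arrays for 13 members (12.8% of all genes) and below them for 2 members (10.8% of all genes). Without control replicate 1, 26 of 34 members still had a log2 fold change above 0 (60.1% of all genes). The median of the members was then 0.12, against 0.04 over all genes, and 1 member, *H2az2*, passed.

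**Figure D1:**
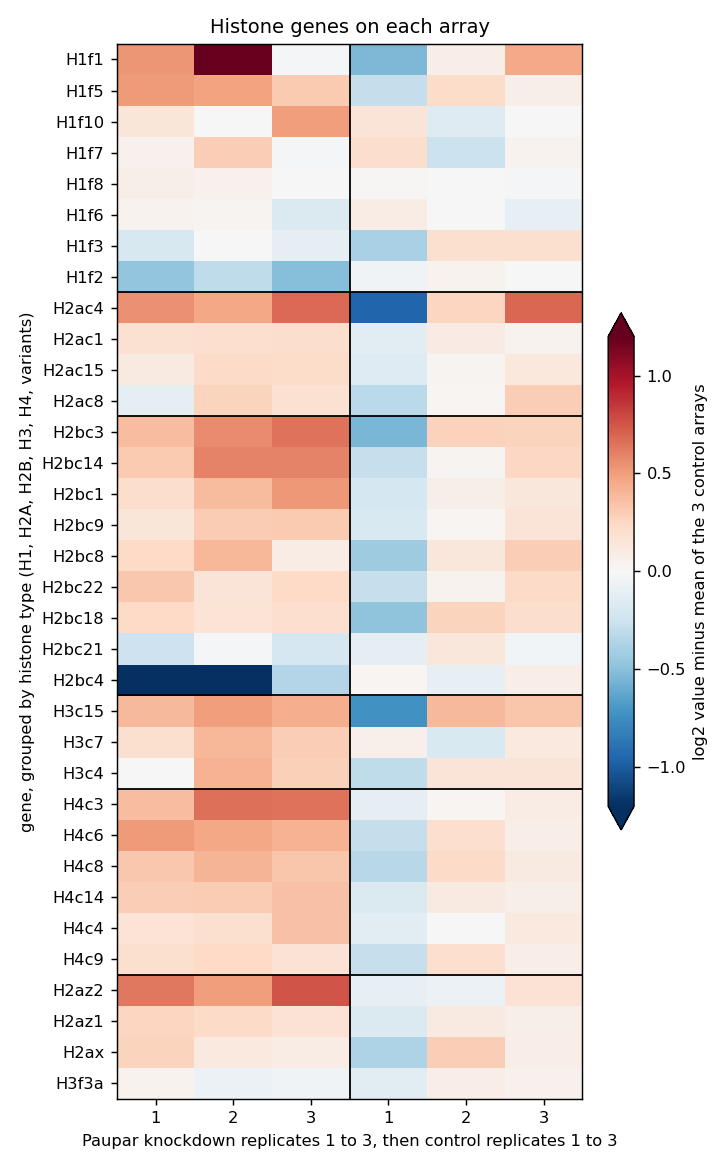
Log2 value of each of the 34 histone genes on every array, less the control mean of that gene (colour, which ends at 1.2 in either direction), with the knockdown arrays on the left and the control arrays on the right, and black lines between histone types. The column of control replicate 1 is blue for most genes, and *H1f2* and *H2bc4* are blue on the knockdown arrays.

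*H2az2*, which encodes a form of H2A.Z, a variant placed at promoters, gave the largest positive difference. Its log2 values were 11.40, 11.27 and 11.51 on knockdown arrays, against 10.66, 10.69 and 10.94 on control arrays. The groups did not overlap, and even the highest control array lay below the lowest knockdown array. The log2 fold change was 0.63 (SE 0.13, 95% interval 0.36 to 0.90, adjusted p = 0.0110), a 1.55-fold higher level. *H2az2* passed the threshold whichever array was left out, with log2 fold changes of 0.57 to 0.72.

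The other variants had smaller differences. *H2az1*, which encodes the other form of H2A.Z, had values of 12.85, 12.82 and 12.76 on knockdown arrays, against 12.42, 12.70 and 12.66 on control arrays. The groups did not overlap, but the gene did not pass the variance filter and has no adjusted p; its log2 fold change in the fit to all genes was 0.22 (95% interval 0.01 to 0.43), and the row of *H2az1* not used gave 0.23. The value was 0.13 without control replicate 1. *H2ax*, whose product is phosphorylated at DNA breaks, had 9.54, 9.39 and 9.36 on knockdown arrays, against 8.91, 9.57 and 9.35 on control arrays. Here the groups overlapped, and the log2 fold change of 0.16 (95% interval -0.17 to 0.49, adjusted p = 0.541) became -0.03 without control replicate 1. *H3f3a*, a gene of the replacement histone H3.3, had 6.79, 6.67 and 6.70 on knockdown arrays, against 6.61, 6.83 and 6.79 on control arrays. Its log2 fold change was -0.02 (95% interval -0.22 to 0.17), and it did not pass the variance filter. The *H3f3a* row lay below the median gene of every array (7.85 to 7.92), so whether it follows the H3.3 mRNA is not known.

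H4 had the highest median log2 fold change of the 6 types, 0.34. All 6 members had log2 fold changes above 0 (58.4% of all genes), between 0.20 and 0.56. In 5 of the 6 every knockdown array lay above every control array (12.8% of all genes). Control replicate 1 was the lowest array for all 6 members (19.2% of all genes). *H4c3* rose: its values were 9.27, 9.55 and 9.55 on knockdown arrays, against 8.78, 8.92 and 8.99 on control arrays, a 1.48-fold higher level (log2 fold change 0.56, SE 0.13, adjusted p = 0.0190). The groups did not overlap, with an SD of 0.16 in knockdown and 0.11 in control arrays. *H4c3* missed the threshold without control replicate 1 (adjusted p = 0.0634), control replicate 3 (adjusted p = 0.0735) or knockdown replicate 2 (adjusted p = 0.104), while its log2 fold change lay between 0.50 and 0.66 with 1 array left out.

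*H4c6* lay just beyond the threshold (log2 fold change 0.47, SE 0.14, adjusted p = 0.0512), with values of 11.80, 11.76 and 11.72 on knockdown arrays, against 11.01, 11.50 and 11.38 on control arrays. Its knockdown arrays lay close together, whereas control replicate 1 was well below the other control arrays. *H4c8* (0.35), *H4c14* (0.32) and *H4c4* (0.24) did not overlap between groups and missed the threshold, with adjusted p of 0.139, 0.120 and 0.224. *H4c9* had the smallest difference of the type. Its values were 8.33, 8.38 and 8.31 on knockdown arrays, against 7.86, 8.33 and 8.21 on control arrays, and it did not pass the variance filter. Averaged over the 6 members and set against the control mean, the H4 genes stood at 0.31, 0.38 and 0.38 on knockdown arrays, against -0.22, 0.13 and 0.09 on control arrays. Without control replicate 1 the H4 median was 0.21, *H4c8* had 0.19 and *H4c9* 0.06.

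**Figure D2:**
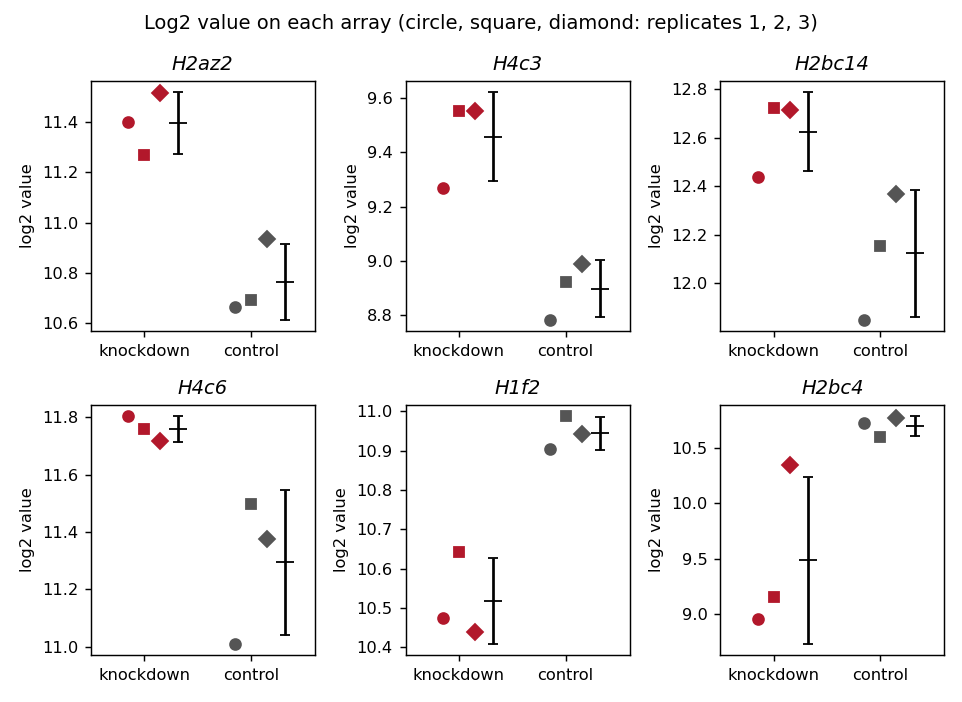
Log2 value of the 5 histone genes that passed the threshold and of *H4c6*, which narrowly missed it, on each array; circle, square and diamond are replicates 1, 2 and 3, and bars give the mean and SD, n = 3. The axes do not start at 0 and differ between panels. The groups overlap in none of the 6 panels, and knockdown replicate 3 of *H2bc4*, at 10.34, lies far from the other knockdown arrays.

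H2B held both a gene that rose and the gene with the largest fall. *H2bc4* fell: its values were 8.96, 9.15 and 10.34 on knockdown arrays, against 10.72, 10.59 and 10.77 on control arrays. Knockdown replicate 3 lay just below the lowest control array, whereas the other knockdown arrays lay far below it. The log2 fold change was -1.21 (SE 0.25, 95% interval -1.75 to -0.66, adjusted p = 0.0138), a 2.31-fold lower level. *H2bc4* missed the threshold without control replicate 1 (adjusted p = 0.0843), control replicate 3 (adjusted p = 0.106) or knockdown replicate 2 (adjusted p = 0.0608), and its log2 fold change lay between -1.64 and -0.95 with 1 array left out. In human cells the gene of the same name is known to give polyadenylated transcripts besides the stem-loop form, as do those of *H2bc21* and *H1f2*. The variants, which mostly give polyadenylated mRNAs, had log2 fold changes of -0.02 to 0.63. A link between transcript form and direction was not tested.

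*H2bc14* rose, with values of 12.44, 12.72 and 12.71 on knockdown arrays, against 11.85, 12.15 and 12.37 on control arrays. The groups were narrowly apart, at a 1.42-fold higher level (log2 fold change 0.50, SE 0.15, adjusted p = 0.0487). The gene missed the threshold whichever array was left out, with log2 fold changes of 0.37 to 0.62 and adjusted p of 0.0627 to 0.194. *H2bc3* had the highest log2 fold change of the type, 0.53 (SE 0.19, adjusted p = 0.0980), with values of 11.38, 11.57 and 11.66 on knockdown arrays, against 10.46, 11.29 and 11.28 on control arrays. Without control replicate 1 this value was 0.25. *H2bc1*, a testis H2B gene, had 0.37 with no overlap between groups (adjusted p = 0.104). *H2bc9*, *H2bc8*, *H2bc22* and *H2bc18* had 0.26, 0.24, 0.24 and 0.20 with overlapping groups. These values were 0.17, 0.03, 0.10 and -0.04 without control replicate 1. *H2bc21* was, with *H2bc4*, the H2B gene below 0 (-0.16, 95% interval -0.42 to 0.10). Its values were 7.58, 7.80 and 7.62 on knockdown arrays, against 7.72, 7.96 and 7.79 on control arrays, and the groups overlapped.

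The linker histones pointed both ways. *H1f2*, a somatic H1 gene, fell: it had 10.48, 10.64 and 10.44 on knockdown arrays, against 10.90, 10.99 and 10.94 on control arrays. The spread within each group was small and the groups did not overlap, at a 1.34-fold lower level (log2 fold change -0.43, SE 0.12, 95% interval -0.68 to -0.18, adjusted p = 0.0420). With 1 array left out the log2 fold change was -0.49 to -0.39, and the adjusted p of 0.0524 to 0.160 missed the threshold each time. *H1f5*, another somatic H1 gene, had 12.47, 12.44 and 12.27 on knockdown arrays, against 11.68, 12.17 and 12.03 on control arrays. These groups did not overlap either, and the log2 fold change of 0.44 missed the threshold (SE 0.14, adjusted p = 0.0697).

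*H1f1* had the highest log2 fold change of H1, 0.60, but also wide spread (SE 0.28, adjusted p = 0.181). Its values were 11.59, 12.36 and 11.04 on knockdown arrays, against 10.52, 11.14 and 11.52 on control arrays, and the groups overlapped. The log2 fold change of *H1f1* was 0.33 without control replicate 1, 0.25 without knockdown replicate 2, where *H1f5* stood above it with 0.41, and 0.91 without knockdown replicate 3. The somatic gene *H1f3* had -0.10 (adjusted p = 0.702), and *H1f10*, a linker gene outside the clusters, had 0.21 (adjusted p = 0.358). *H1f3* had -0.29 without control replicate 1, and *H1f10* had 0.07 without knockdown replicate 3. The germ cell genes of H1 lay near 0: the log2 fold change was 0.11 for *H1f7* of spermatids, 0.04 for *H1f8* of oocytes and -0.03 for *H1f6* of spermatocytes. The direction of *H1f7* turned without control replicate 2 (-0.02), and that of *H1f6* without control replicate 1 (0.01) or knockdown replicate 3 (0.04). The H1 median was 0.07, the lowest of the 6 types, but 0.13 and the second highest without control replicate 1. Its members ranged from -0.43 to 0.60.

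No member of H2A or H3 passed the threshold in limma; 2 of the 4 H2A and 2 of the 3 H3 genes had passed the variance filter and were tested. At an unadjusted p under 0.05, 1 member of each type had a positive difference, *H2ac1* and *H3c7* (6.03% of all genes). With a filter by sample variance *H2ac4* (adjusted p = 0.00954) and *H3c15* (adjusted p = 0.0478) passed in limma. Their log2 fold changes were unchanged by it, so these calls came from the choice of filter and are not counted here. All 4 H2A genes lay above 0, as did 58.4% of all genes. *H2ac4* had the highest value, 0.56 (SE 0.28, adjusted p = 0.215), with 8.81, 8.72 and 8.94 on knockdown arrays, against 7.31, 8.52 and 8.95 on control arrays. This difference rested on control replicate 1, without which it was 0.09. *H2ac8* had the lowest, 0.11 (adjusted p = 0.667), with 4.96, 5.33 and 5.24 on knockdown arrays, against 4.74, 5.09 and 5.36 on control arrays. The groups overlapped, and the value was -0.05 without control replicate 1. *H2ac1*, a testis H2A gene (0.20), and *H2ac15* (0.19) did not pass the variance filter, and the groups of *H2ac1* did not overlap. They had 0.13 and 0.11 without control replicate 1.

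The 3 H3 genes had log2 fold changes of 0.44 (*H3c15*), 0.30 (*H3c7*) and 0.23 (*H3c4*). *H3c15* had 9.34, 9.45 and 9.39 on knockdown arrays, against 8.23, 9.34 and 9.29 on control arrays. Control replicate 1 alone lay far from the others, and without it the log2 fold change of *H3c15* was 0.08. The gene did not pass the variance filter and has no adjusted p. *H3c7* had 5.02, 5.22 and 5.12 on knockdown arrays, against 4.88, 4.64 and 4.94 on control arrays, with no overlap (SE 0.13, adjusted p = 0.152). *H3c4* overlapped between groups, at 8.02, 8.44 and 8.31 on knockdown arrays, against 7.72, 8.18 and 8.18 on control arrays (adjusted p = 0.337), and had 0.08 without control replicate 1. The type medians were 0.30 for H3, 0.24 for H2B, 0.19 for H2A and 0.19 for the variants. They were not tested against each other. The H3 median is the value of *H3c7*. The rows of *H3c7* and, in H2A, *H2ac8* lay far below the median gene (7.85 to 7.92 by array). Those of *H2bc22*, *H1f8* and *H1f6* also lay below it on every array. Whether such rows follow their mRNAs is not known. The medians without control replicate 1 were 0.21 for H4, 0.13 for H1, 0.10 for H2B, 0.10 for H2A, 0.08 for H3 and 0.05 for the variants, so that below H4 the order of the types was another one. With arrays weighted by their spread the medians were 0.25 for H4, 0.16 for H3, 0.14 for the variants, 0.10 for H1, 0.07 for H2B and 0.02 for H2A. These rest mostly on control replicate 3 among the controls, with a weight of 4.44 against 0.29 and 0.66 for replicates 1 and 2. The knockdown weights were 1.93, 1.96 and 0.31.

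**Figure D3:**
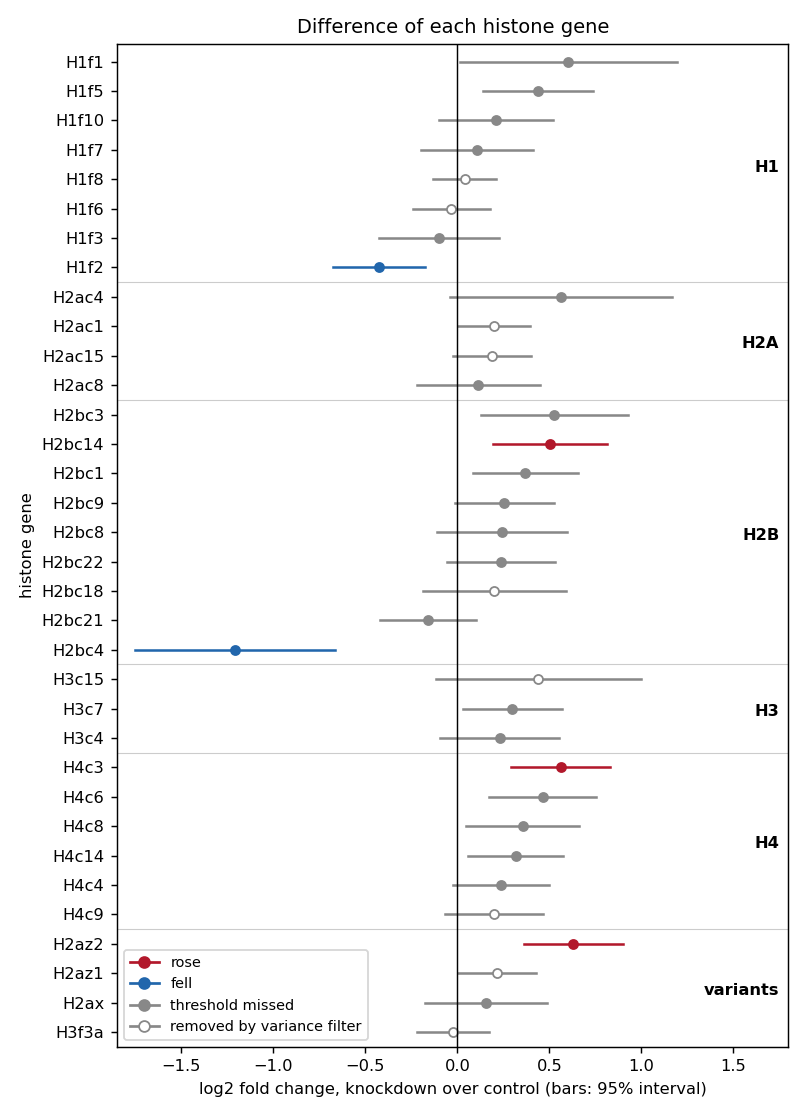
Log2 fold change of each histone gene, knockdown over control (x axis), with its 95% interval from limma, by histone type; filled points come from the test over variance-filtered genes and open points from the fit to all genes. All 6 H4 genes lie above 0, and *H2bc4* lies at -1.21.

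Promoters are shown for the members that passed the threshold and had a window (*H2az2*, *H4c3*, *H2bc14* and *H1f2*) and, beside them, for *H1f5*, *H2bc3* and *H4c6*, which were picked as genes of the same types after their values were seen. RefSeq windows of the GRCm38.p6 assembly were matched by symbol for 29 of 34 members; *H2bc21*, *H2bc4*, *H3c7*, *H4c14* and *H2ax* are named only. Each line gives the 150 bases before the annotated start, 5′ to 3′ along the gene. Capitals mark the CCAAT box, the TATA box as TATAAA or in the related form TATATA (these can overlap), the octamer ATTTGCAT, the H1 box AAACACA and, as part of the H4 element, GGTCCG, each on either strand.
H1f2, chr13:23738657-23738806, plus strand: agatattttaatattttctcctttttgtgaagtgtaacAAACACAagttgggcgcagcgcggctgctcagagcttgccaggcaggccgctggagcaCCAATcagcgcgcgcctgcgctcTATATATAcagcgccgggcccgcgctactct
H1f5, chr13:21780626-21780775, minus strand: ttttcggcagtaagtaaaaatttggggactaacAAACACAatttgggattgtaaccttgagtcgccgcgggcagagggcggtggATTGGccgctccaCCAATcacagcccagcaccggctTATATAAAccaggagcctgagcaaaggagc
H2bc14, chr13:21721894-21722043, plus strand: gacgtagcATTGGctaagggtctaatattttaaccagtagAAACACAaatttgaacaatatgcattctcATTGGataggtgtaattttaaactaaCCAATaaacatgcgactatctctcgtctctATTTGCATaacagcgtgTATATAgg
H2bc3, chr13:23746584-23746733, plus strand: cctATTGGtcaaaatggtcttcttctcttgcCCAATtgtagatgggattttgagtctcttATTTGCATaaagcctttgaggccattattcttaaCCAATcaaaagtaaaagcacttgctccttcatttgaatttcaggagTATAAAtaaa
H4c3, chr13:23698459-23698608, minus strand: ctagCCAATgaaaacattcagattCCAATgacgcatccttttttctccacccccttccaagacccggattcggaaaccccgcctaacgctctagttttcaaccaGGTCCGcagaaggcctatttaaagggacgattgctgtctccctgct
H4c6, chr13:23551669-23551818, minus strand: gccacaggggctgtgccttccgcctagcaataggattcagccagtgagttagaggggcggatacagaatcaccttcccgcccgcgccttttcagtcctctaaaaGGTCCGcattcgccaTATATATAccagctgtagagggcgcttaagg
H2az2, chr11:6444444-6444593, minus strand: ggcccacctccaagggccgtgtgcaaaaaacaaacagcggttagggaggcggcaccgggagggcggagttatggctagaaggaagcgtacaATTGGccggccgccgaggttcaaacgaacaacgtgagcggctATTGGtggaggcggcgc

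*H1f2*, which fell, and *H1f5*, which lay higher upon knockdown, shared some motifs and differed in others. The H1 box began 112 bases before the start of *H1f2* and 117 before that of *H1f5*, CCAAT 54 and 53 bases before it, and TATATA 31 and 30 bases before it. *H1f5* also held TATAAA, 28 bases before the start, and CCAAT at 168 bases and, on the reverse strand, at 66 bases before it, whereas *H1f2* held no TATAAA and 1 CCAAT. The H1 box also stood in the windows of *H1f3* and *H1f6*, so that 4 of 8 H1 windows held it, against 6.25% of all 32851 windows of 250 bases. It was not particular to H1: 2 of 4 H2A, 2 of 7 H2B and 1 of 3 variant windows also held it, 9 of 29 in all. The octamer stood in 5 of 7 H2B windows and 3 of 4 H2A windows, against 1.6% of all windows. In *H2bc14* it began 25 bases before the start, and in *H2bc3* 90 bases before it. GGTCCG stood in 4 of 5 H4 windows, against 6.72% of all windows, and began 46 bases before the start of *H4c3*, *H4c6* and *H4c9* and 47 bases before that of *H4c4*. It also stood in 1 of 8 H1 and 1 of 7 H2B windows. CCAAT stood in 23 of 29 member windows and in 33.8% of all windows, TATAAA in 14 of 29 and 12.4%, and TATATA in 9 of 29 and 5.25%. In the window of *H2az2*, CCAAT was present on the reverse strand and neither TATAAA nor TATATA was found. A match of letters is not a measured binding site.

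Genes that differed in opposite directions were neighbours. Of the members, 23 lie on chromosome 13 and 5 on chromosome 3. In the order of the GRCm38.p6 annotation on chromosome 13, *H2bc4* (-1.21) is followed by *H1f6* (-0.03), *H4c3* (0.56), *Hfe*, a pseudogene and *H1f2* (-0.43), and farther on by *H2bc3* (0.53). The gene with the largest fall and a gene that rose are thus separated by a single gene.

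Many histone genes are too alike for a row of the array to be assigned to 1 of them. A further 26 rows carried only histone symbols, between 2 and 20 each. They name no gene here and enter no count of members. They were grouped by the type of most of their symbols: 2 rows were of H2A, 7 of H2B, 10 of H3 and 6 of H4, and 1 row mixed H1 and H2B. Rows of a type list largely the same genes and may share probes, so that they are not independent measurements. In H2B 2 rows had identical values on every array, as had 2 rows in H4, and each was counted. All 26 had log2 fold changes above 0 (58.4% of all genes), from 0.15 to 0.37 with a median of 0.21. In 24 of them every knockdown array lay above every control array (12.8% of all genes). Without control replicate 1 the log2 fold changes of the 26 rows ranged from 0.07 to 0.20.

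Differences in these shared rows were narrower in range than in rows of 1 gene. The 10 H3 rows had log2 fold changes of 0.20 to 0.24, and their median values were 14.24, 14.24 and 14.28 on knockdown arrays, against 13.91, 14.06 and 14.15 on control arrays. Of all rows of the table, 99.5% had a mean below the lowest of these, so they lay near the top of the scale. The 7 H2B rows had 0.19 to 0.23 and the 2 H2A rows 0.17 and 0.19. In the 6 H4 rows the median was 0.25. With the shared rows added, the median of the H4 type became 0.25 and that of the H3 type 0.21.

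**Figure D4:**
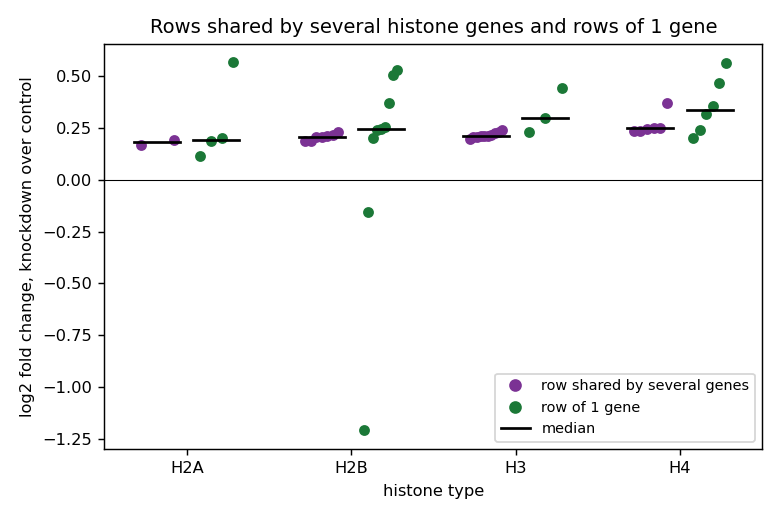
Log2 fold change, knockdown over control (y axis), of rows shared by several histone genes (purple) and of rows of 1 gene (green), by histone type, with the median as a black line. H2A, H2B, H3 and H4 are drawn, without the row that mixed types and without H1 and the variants. The shared rows drawn lie between 0.17 and 0.37, and of these 4 types *H2bc4* and *H2bc21* are the genes below 0.

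Genes that make, process and degrade histone mRNA were examined next, together with the cell cycle genes *Cdk2*, *Ccne1*, *Ccne2* and *Ccna2*. The list held 39 genes, of which 37 were measured, and 23 passed the variance filter and were tested. Of these, 5 rose and 0 fell in limma, where 2.39% of all genes tested rose and 5.16% fell. At an unadjusted p under 0.05, 12 of the 37 lay above 0 and 0 below it (6.03% and 7.89% of all genes), and the median log2 fold change was 0.14. *Slbp*, which encodes the protein bound to the stem-loop of histone mRNA, had 10.77, 10.89 and 10.54 on knockdown arrays, against 9.77, 10.13 and 10.09 on control arrays. The groups lay far apart, at a 1.66-fold higher level (log2 fold change 0.73, SE 0.14, adjusted p = 0.00776). *Ccne2*, a cyclin E gene (0.81), *Cdk2*, its kinase partner (0.53), *Ccna2*, the cyclin A of S phase (0.46), and *Upf1*, a helicase that acts in histone mRNA decay (0.39), also rose. The study named cell cycle genes from these same samples, so *Ccne2*, *Cdk2* and *Ccna2* are no independent evidence of a direction. *Npat*, which encodes the coactivator of histone genes that cyclin E and CDK2 phosphorylate, had 10.25, 10.20 and 10.23 on knockdown arrays, against 9.98, 10.09 and 10.11 on control arrays. It did not overlap between groups, did not pass the variance filter and had a log2 fold change of 0.16 (95% interval -0.01 to 0.34). *Casp8ap2*, a component of histone locus bodies, had 9.12, 9.19 and 8.92 on knockdown arrays, against 8.36, 8.88 and 8.63 on control arrays. The groups lay just apart, and the log2 fold change of 0.45 missed the threshold (SE 0.14, adjusted p = 0.0697). The other genes that process the 3′ end lay between -0.10 (*Cstf3*) and 0.37 (*Cpsf4*, adjusted p = 0.0915), and none of them passed.

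Histone chaperones, which carry histones to and from DNA, showed 5 rises and 0 falls among 26 measured genes of 27, 18 of which were tested (2.39% of all genes tested rose and 5.16% fell). At an unadjusted p under 0.05, 8 of the 26 lay above 0 and 1 below it (6.03% and 7.89% of all genes). The median was 0.17, against 0.03 over all genes. The 5 were *Tonsl* (0.62), which binds new H4 behind the replication fork, *Chaf1a* (0.59) and *Chaf1b* (0.56), subunits of the assembly factor CAF-1, *Asf1b* (0.59), which hands H3 and H4 to it, and *Dnajc9* (0.58), a chaperone of H3 and H4. *Atrx*, which acts with *Daxx* to place H3.3, had -0.42 (adjusted p = 0.0579), and *Daxx* had 0.06.

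The median log2 fold change of the 34 histone genes, 0.23, was below that of a list of S phase genes. The sets are unlike, because the histone genes include variants, germ cell genes and rows far below the median gene. In a list of 20 replication genes, of which 19 were measured and 18 tested, 10 rose and 0 fell, against 2.39% and 5.16% of all genes tested. At an unadjusted p under 0.05, 15 of the 19 lay above 0 and 0 below it (6.03% and 7.89% of all genes). The median was 0.52, against 0.03 over all genes. *Rrm2*, a subunit of ribonucleotide reductase, had the highest value (1.06), followed by the helicase loader *Cdc6* (0.87) and the helicase subunit *Mcm3* (0.80), whereas the highest log2 fold change of a histone gene was 0.63. The study named cell cycle genes from these same samples, so this list is no independent evidence of a direction. On each array, set against the control mean, the mean of the list stood at 0.66, 0.62 and 0.39 on knockdown arrays, against -0.37, 0.23 and 0.15 on control arrays. Control replicate 1 was the lowest array for 19 of its 19 genes, as for most histone genes; this was not tested further. The mean over all 34 histone genes stood at 0.14, 0.25 and 0.22 on knockdown arrays, against -0.23, 0.09 and 0.14 on control arrays. Knockdown replicate 3, the lowest knockdown array in the S phase list, was not the lowest in the histone mean or in the mean of any type other than H1.

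The number of calls in these lists moved with the array left out. Without control replicate 1, limma called 2 supply, 0 chaperone and 3 S phase genes, where 10, 7 and 14 had an unadjusted p under 0.05. Leaving out control replicate 3 gave 0, 0 and 2 calls (11, 8 and 15 unadjusted). With knockdown replicate 1 left out there were 1, 0 and 3 calls (8, 6 and 14 unadjusted), and with knockdown replicate 2 left out 0, 0 and 2 (8, 7 and 14 unadjusted). No chaperone gene thus passed in any of these 4 fits, in which between 112 and 242 of all genes passed. No share over all genes is given beside the unadjusted counts of these fits. With control replicate 2 left out 7 supply, 5 chaperone and 13 S phase genes passed, and 786 of all genes. With knockdown replicate 3 left out the counts were 8, 7 and 13, and 1239 of all genes.

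**Figure D5:**
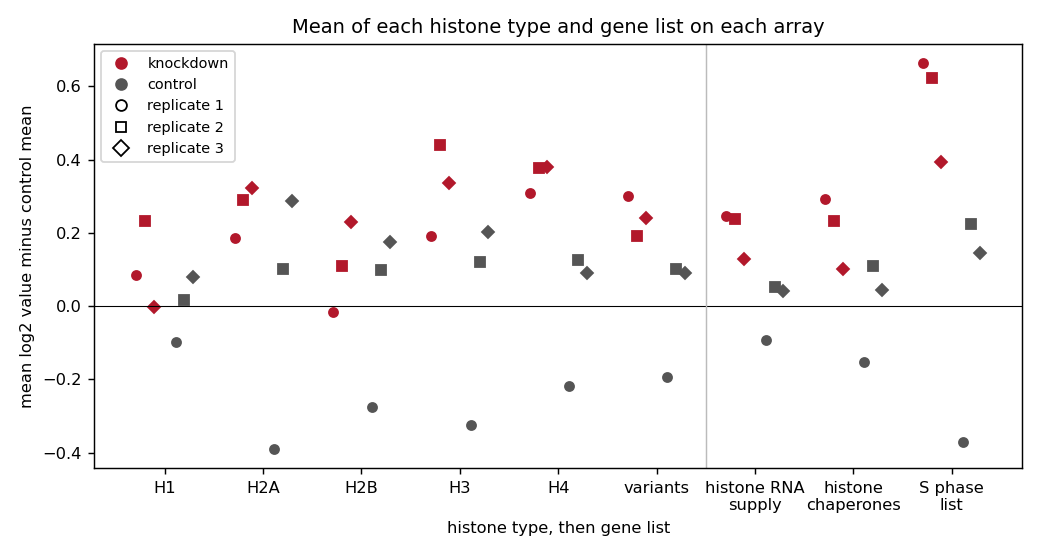
Mean log2 value of each histone type and of 3 lists of genes, by array and relative to the control mean (y axis), with knockdown in red and control in grey; circle, square and diamond are replicates 1, 2 and 3. Control replicate 1 is the lowest array throughout, and knockdown and control arrays are apart in H4, the variants, the supply list and the S phase list.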

How the data were processed

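For each array 200 ng of RNA was labelled. The authors applied RMA background correction, quantile normalisation and summarisation (no versions stated in the sources used here), so the deposited values are log2 expression values, in 35556 rows. By the platform annotation 21789 rows had 1 symbol, 1621 several and 12146 none, and a gene with more than 1 row was represented by its brightest row on average. RefSeq served for names, neighbours and promoters, because no build of the array design is stated in the sources used here.

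A filter on interquartile range dropped 50% of the 19938 genes (the methods state a variance filter; its measure was chosen here), which left 9969 for limma 3.58.1 in R 4.3.3 (lmFit, eBayes). Adjusted p-values are Benjamini-Hochberg over these genes, called under 0.05. Members that missed the filter were read from a fit to all genes. SE and 95% intervals are moderated ones, and the steps were tested on simulated data. The methods call the samples biological replicates; 3 arrays per group limit the precision, and an exact permutation test could not go below 0.10.

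The members and lists were chosen with earlier results of these data known. Values are given in full for members past the threshold, the highest and lowest of each type, all variants, and *Slbp*, *Npat* and *Casp8ap2*. List members past the threshold are given by log2 fold change, for S phase genes the highest only. Other genes were named after their values were seen. The list entries *Zcchc11* and *Zcchc6* were matched as *Tut4* and *Tut7*. Other filters, rows, scalings and weights, a replicate block and leaving out each array were tried.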

Additional observations from a re-analysis of the deposited data

How the results depend on the processing

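The 5 calls among histone genes depended on the filter and on single arrays. With no filter 3 members passed (*H1f2*, *H2az2* and *H4c3*), and 612 of all genes. With a filter by sample variance 11 members passed, and 995 of all genes. With arrays weighted by their spread 12 members passed (9 rises and 3 falls). In a fit to all rows of the table, limma called 0 members of 20 tested (9 at an unadjusted p under 0.05, smallest adjusted p = 0.154) and 0 of 17778 rows (3015 at an unadjusted p under 0.05). Of the 9969 genes tested, 752 passed in the main fit and 5561 with weighted arrays (2896 rises and 2665 falls). Both of these fits tested 25 members. The weighted control mean rested mostly on control replicate 3, which had a weight of 4.44. With 1 array left out, between 112 and 1239 genes and between 1 and 6 members passed. The H3 median then ranged from 0.0786 to 0.36 and that of the variants from 0.0512 to 0.29, lowest without control replicate 1. *H2ac4* and *H2ac8* turned to -0.03 and -0.14 with weighted arrays, and *H1f6* to 0.09. With the filter on level, the mean of all rows of a gene, arrays centred on the median, or a prior variance with trend, 5, 5, 4 and 6 members passed. Over all genes these settings gave 1041, 750, 682 and 1008 calls. *H2az2* passed in 14 of 15 alternatives.

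The replicate numbers were not taken as a pairing: deviations of same-numbered arrays correlated at -0.340, 0.0956 and 0.0797 for replicates 1, 2 and 3. With a replicate block 680 genes and 5 members passed; *H1f2* missed the threshold (adjusted p = 0.0573) and *H2bc3* passed (adjusted p = 0.0362).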

Other observations

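Some histone genes outside the families described had rows of their own. *Cenpa*, the H3 variant of centromeres, had 11.02, 10.94 and 10.89 on knockdown arrays, against 10.48, 10.79 and 10.77 on control arrays, with no overlap and a log2 fold change of 0.27 (SE 0.12, adjusted p = 0.184). *H2aw*, a clustered H2A gene whose symbol has no digit, had 0.19, *H2aj* 0.02, *Macroh2a1* 0.14 and *Macroh2a2* -0.04, none of which passed the test or, for *H2aw* and *Macroh2a1*, the variance filter.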
